A study of Mus musculus with 10 samples.

Results

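The isoforms described here are long-read transcripts without a splice that lie on the sense strand of an annotated gene and match no annotated transcript. They were taken from the long-read isoform tables of mature mouse thymocytes as every row with 1 exon and the structural category novel_in_catalog (built from known gene sequence) or genic (overlapping introns and exons of a gene). The rule found 2872 such isoforms among 9476 in the CD8SP library and 2634 among 8289 in the CD4SP library, and they are called in-gene single-exon isoforms below. Percent A after the 3′ end, length and the lineages that share a gene were not part of the rule, while place in the gene is partly set by the structural category.

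CD8SP cells are single-positive thymocytes that have taken the cytotoxic lineage and CD4SP cells those that have taken the helper lineage. Both groups came from untreated C57BL/6 mice of 6 to 8 weeks, with 2 to 3 thymi pooled per sample. CD8SP cells were sorted as CD8+CD4-TCRβ+CD24- after magnetic removal of CD4-bearing cells, and CD4SP cells as CD4+CD8-TCRβ+CD24- after removal of CD8-bearing cells. The study compared alternative splicing between these lineages, with full-length cDNA of total RNA amplified by PCR for the PacBio libraries and rRNA-depleted RNA for the Illumina ones. Each lineage had 1 PacBio library and 4 short-read lanes whose values stand pooled in 1 file, so no result below has a replicate, and p-values and intervals cover counting error between these libraries only, not mice. In such bulk samples, fewer cells of a type and less RNA per cell cannot be told apart.

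Most genes of T cells are transcribed as long precursors whose introns are removed while the exons are joined, and the end of the RNA receives a poly(A) tail that starts after a polyadenylation signal. Long-read cDNA is usually primed with oligo(dT), which anneals to that tail but can also anneal to a run of A inside an RNA, so a run of A in the genome after the 3′ end of an isoform is a known mark of priming inside the transcript. An isoform of a single exon inside a gene can be a fragment of precursor RNA, a transcript that keeps its introns, or a short transcript of its own.

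The sequences at both ends are shown because the results below turn on them. The 5 printed first belong to the longest in-gene single-exon isoforms whose 3′ end was the same base in both libraries, whose window after the 3′ end was A-rich and whose both ends could be read, with 1 isoform per gene, and they were chosen after the values were seen. For each, the first line is the start of the isoform with T in capitals and the second line is the 20 genomic bases after its 3′ end with A in capitals, both 5′ to 3′ on the strand of the isoform, read from GENCODE M21 transcripts on GRCm38. The starts are those of the CD8SP isoform.
Ndufb2 start, chr6:39603237-39603256, plus strand: TTTcTccaTgcagTcaaTcT
Ndufb2 after the end, chr6:39607668-39607687, plus strand: ttAAAAAAAAAAAAAAAAAA
Plcg1 start, chr2:160765734-160765753, plus strand: TTTTagaTTTTTgTTTaTTa
Plcg1 after the end, chr2:160769955-160769974, plus strand: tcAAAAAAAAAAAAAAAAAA
Tmem163 start, chr1:127487218-127487237, minus strand: TgaaacTTgTgagagaacTT
Tmem163 after the end, chr1:127483013-127483032, minus strand: ttAAAAAAAAAAAAAAAAAA
Vil1 start, chr1:74435510-74435529, plus strand: TgaggTTaaTaaaggcTTTa
Vil1 after the end, chr1:74438895-74438914, plus strand: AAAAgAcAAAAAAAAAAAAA
Esf1 start, chr2:140152056-140152075, minus strand: TTTTcTTTTTTTTTTTTTTT
Esf1 after the end, chr2:140148794-140148813, minus strand: cAAgAAAAAgAAAAgAAAgg

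In these isoforms the end lay just before a run of A, and in Plcg1 (phospholipase C gamma, a relay of the T cell receptor) and Esf1 (a nucleolar protein of ribosome assembly) the start also lay in a run of T. The Plcg1 isoform was 4221 bases long in both libraries and lay wholly in an intron. The Esf1 isoform overlapped an exon and measured 3262 bases in CD8SP and 3268 bases in CD4SP.

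A smaller set ended without such a run. The last 30 bases of 3 isoforms that ended within 50 bases of an annotated transcript end, again at the same base in both libraries, are printed with the polyadenylation signal (AATAAA or ATTAAA) in capitals. They were chosen because a signal stood in these 30 bases, so its presence here is not a result.
Cox17, chr16:38352711-38352740, plus strand: ataaagtatttataatttATTAAAaaacag
Nipsnap1, chr11:4893619-4893648, plus strand: aaaaaaaataAATAAAaatcctggaactgc
Tpt1, chr14:75848266-75848295, plus strand: gggttgtctaaaAATAAAgtgcatttaaat

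The signal began 12 bases before the end of the Cox17 isoform (a copper chaperone of respiratory complex assembly), 20 bases before that of Nipsnap1 (a mitochondrial protein) and 18 bases before that of Tpt1 (translationally controlled tumour protein). The 20 bases after these ends held 55%, 35% and 25% A in the order given, all below the 60% taken here as A-rich.

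The sorted cells carried the lineage markers of their labels. The summed FPKM (fragments scaled by transcript length and library size, over RefSeq transcripts) of Cd8a, Cd8b1, Runx3, Itgae and Nkg7 was 878 in CD8SP and 47.4 in CD4SP, and that of Cd4, Zbtb7b and Cd40lg was 0.933 in CD8SP and 126 in CD4SP. Of 5 markers of immature double-positive thymocytes, 2 reached 1 FPKM in CD8SP and 3 in CD4SP, with sums of 15.0 and 26.4 FPKM in that order. Among them Cd24a, the gene of the CD24 protein that the sort selected against, stood at 10.1 FPKM in CD8SP and 11.8 in CD4SP. Rag1 stood at 4.12 FPKM in CD8SP and 12.5 in CD4SP. T cell markers summed to 624 FPKM in CD8SP and 446 in CD4SP, and erythroid markers to 3.19 and 3.74, nearly all from Hbb-bs. B cell, myeloid and epithelial or stromal marker sums were all below 1 FPKM in both lineages. The part of these other cells in the results was not tested. The CD8SP library listed 9476 isoforms and the CD4SP library 8289, and their read counts stand empty in the tables, so each isoform was counted once and the depth behind it is unknown.

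In-gene single-exon isoforms made up 30.3% of the CD8SP isoforms (95% exact interval 29.4 to 31.2) and 31.8% of the CD4SP isoforms (30.8 to 32.8). The difference of -1.47 percentage points did not pass the test (2-sided Fisher's exact test, adjusted p = 0.103 over 3 shares, unadjusted p = 0.0359). Counted by gene, those with such an isoform were 56.2% of the genes with any sense isoform in CD8SP and 60.2% in CD4SP, a difference of -4.02 points (exact unadjusted p = 0.000979). That exact test takes the genes of the libraries as independent, although 2295 genes were listed in both. A test paired by gene was not run. The novel_in_catalog class held 2585 of them in CD8SP and 2342 in CD4SP, including 395 and 359 that the tables mark as single-exon by intron retention, and the genic class held 287 and 292. Neither class alone differed beyond counting error, with adjusted p = 0.149 and 0.103 by the same exact test. Protein-coding genes hosted 93.8% of these isoforms in CD8SP and 93.4% in CD4SP.

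Both libraries listed many of these isoforms at the same place, which touches every comparison of the lineages below. Of the 2840 CD8SP and 2602 CD4SP isoforms that could be placed inside their gene model, 1366 pairs had 3′ ends within 10 bases of each other, which is 48.1% of the CD8SP and 52.5% of the CD4SP isoforms. The 5′ ends of these pairs were also close, with a median distance of 2 bases, and in 1189 pairs (87.0%) both ends lay within 10 bases. The isoforms of a pair were of the same length in 272 pairs, with the CD8SP isoform longer in 490 and the CD4SP isoform longer in 604. At exactly the same 3′ base 681 pairs remained, and within 50 bases 1507. Sharing of ends was not counted for isoforms of other classes, so nothing particular to this class is read from it. Whether the libraries share molecules was not tested. Sharing of both ends was found in 41.9% of placed CD8SP and 45.7% of placed CD4SP isoforms, and it held for 43.3% of CD8SP isoforms with an A-rich window and 34.2% of the others, and for 46.7% and 40.2% in CD4SP, where the intervals overlap. Without these pairs the in-gene single-exon isoforms were 20.3% of the isoforms left in CD8SP and 20.4% in CD4SP. Isoforms of other classes were not reduced in the same way, so the lower shares follow from the removal.

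The longest pairs had near-identical ends over several kilobases. An isoform of Bcl2l1, the gene of the survival factor Bcl-xL, ran over the same 5866 bases in both libraries (chr2:152824647-152830512, minus strand), spanned 1 whole intron and was followed by a window of 80% A. That of Tbc1d9b spanned 3 introns and had 5665 bases in CD8SP and 5666 in CD4SP. Dnm2, the gene of the membrane-pinching GTPase dynamin, had one across 2 introns with 5516 bases in CD8SP and 5520 in CD4SP. The isoforms of Ubald1 and Elk4 differed in that their windows were not A-rich. The Ubald1 window held 20% A in CD8SP and 15% in CD4SP. That of Elk4, whose isoform had 6012 bases in both libraries, held 40% in CD8SP and 45% in CD4SP. In CD8SP the 3′ ends of both lay within 10 bases of an annotated gene end. Nearly the same stretch as that of Elk4 was also listed on the minus strand, as an isoform of Mfsd4a. Its window held 90% A in both libraries.

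The 20 genomic bases after the 3′ end were A-rich in most in-gene single-exon isoforms. At least 60% of these bases were A in 84.2% of them in CD8SP (2418 isoforms, exact 95% interval 82.8 to 85.5) and in 85.0% in CD4SP (2238 isoforms, 83.5 to 86.3). The lineages did not differ by more than counting error, at -0.774 points (adjusted p = 0.433, 2-sided Fisher's exact test over 5 comparisons). Other single-exon sense isoforms, which match an annotated transcript in full or in part, had such a window in 33.5% of CD8SP and 40.5% of CD4SP cases (adjusted p = 1.92e-169 and 5.88e-111 by the same exact test). Among multi-exon isoforms the share was 21.5% in CD8SP and 24.3% in CD4SP, and the log10 of the adjusted p of the exact test was -571 and -468. The structural category partly sets where isoforms end, so these tests compare isoforms with unlike ends. In-gene isoforms that ended within 50 bases of an annotated end were A-rich in 38.6% of CD8SP and 39.7% of CD4SP cases. No test was made at like ends, and isoforms were taken as independent although some share a gene. Antisense and intergenic single-exon isoforms were not tested against the in-gene class. The antisense ones were A-rich in 96.0% of CD8SP and 96.6% of CD4SP cases. For the intergenic ones the share was 84.7% in CD8SP and 86.3% in CD4SP, near that of the in-gene class.

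**Figure D1:**
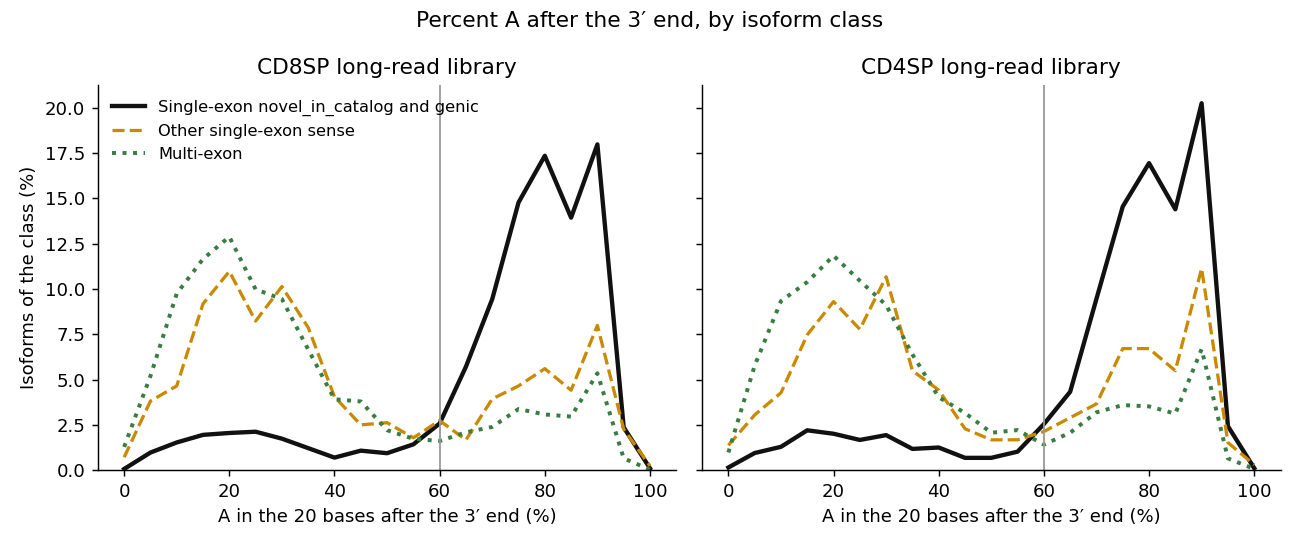
Share of isoforms (vertical axis, percent of the class) by percent A in the 20 bases after the 3′ end (horizontal axis, steps of 5), in the CD8SP library (left) and the CD4SP library (right); the grey line marks 60% A. In-gene single-exon isoforms (black) pile up between 70% and 90% A, with a median of 80% in both libraries, whereas multi-exon isoforms (green dots) have a median of 25% in CD8SP and 30% in CD4SP.

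The median percent A of in-gene single-exon isoforms was 80 in both libraries, with quartiles of 70 and 85 in both. Genic isoforms were A-rich in 72.8% of CD8SP and 71.6% of CD4SP cases, novel_in_catalog isoforms in 85.5% and 86.6%, and the intron-retention subclass in 71.4% and 70.2%. With the pairs with both ends shared left out, the difference between lineages was -1.29 points (exact p = 0.367) and the excess over multi-exon isoforms 60.6 points in CD8SP and 59.1 points in CD4SP.

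Wholly intronic isoforms were the most frequent kind. Of the placed isoforms, 1477 in CD8SP (52.0%) and 1343 in CD4SP (51.6%) overlapped no annotated exon of their gene. A further 797 in CD8SP and 757 in CD4SP overlapped an exon but contained no whole intron, 510 and 472 contained at least 1 whole intron, and 56 and 30 lay wholly in annotated exons. The structural category partly fixes these classes.

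Percent A is given next by place in the gene, as a description. Wholly intronic isoforms had an A-rich window in 93.2% of CD8SP and 94.9% of CD4SP cases, those spanning whole introns in 72.0% and 72.5%, and the wholly exonic ones in 39.3% and 50%, the last on 56 and 30 isoforms. Only 383 CD8SP isoforms (13.5%) and 360 CD4SP isoforms (13.8%) ended within 50 bases of an annotated transcript end of their gene. These were A-rich in 38.6% of CD8SP and 39.7% of CD4SP cases, with a median of 35% A, whereas isoforms ending elsewhere were A-rich in 91.2% and 92.2%.

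**Figure D2:**
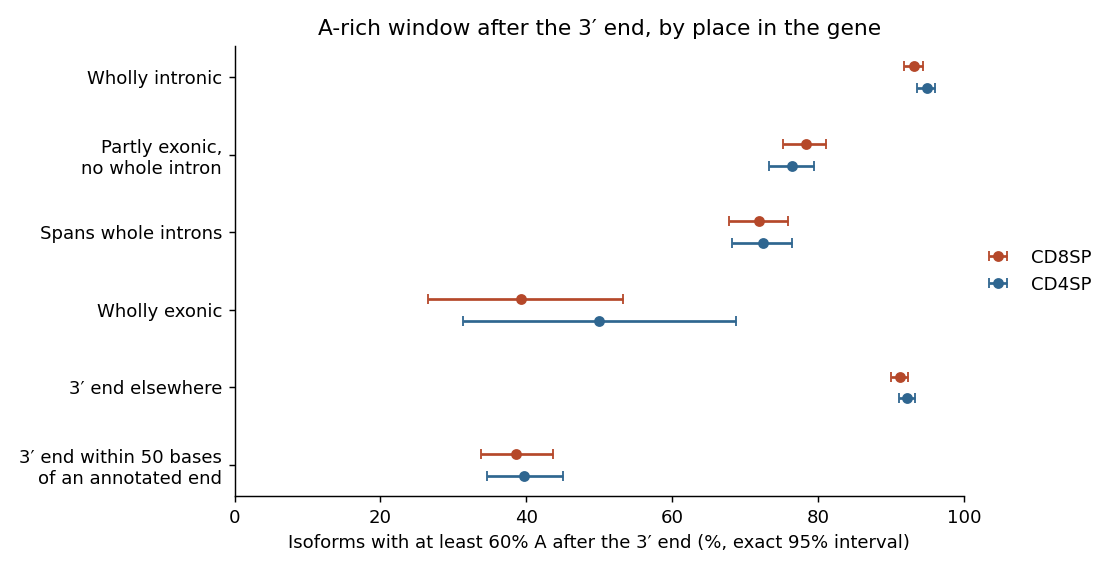
Share of in-gene single-exon isoforms with at least 60% A after the 3′ end (horizontal axis, percent, points with exact 95% intervals) by place in the gene, for CD8SP (red, upper) and CD4SP (blue, lower). Wholly intronic isoforms sit at 93.2% in CD8SP and 94.9% in CD4SP, and those ending within 50 bases of an annotated end at 38.6% and 39.7%.

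Wholly intronic isoforms lay toward the 5′ part of their genes, a description only, since the place of intronic bases themselves was not measured. Their 3′ end stood at a median of 39.5% of the gene's length in CD8SP and 39.4% in CD4SP, whereas the 3′ end of isoforms spanning whole introns stood at 88.2% and 86.4%. The longest annotated intron that held each of them had a median of 28221 bases in CD8SP and 30480 bases in CD4SP, taken over all transcripts of the gene. An open reading frame was predicted by the authors' tables in 15.0% of wholly intronic CD8SP isoforms and 18.3% of CD4SP ones, and in 42.2% and 45.3% of isoforms spanning whole introns.

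Short-read cover of these intronic stretches is given beside that of all other intronic bases of the host genes, with no test. Those other bases include introns that held none of these isoforms, and short-read transcripts on either strand were counted. Listed short-read transcripts, which include many single-exon assembled fragments, overlapped 80.2% of the intronic bases inside these isoforms in CD8SP and 86.2% in CD4SP. The remaining intronic bases of the same 2526 genes were overlapped over 58.3% in CD8SP and 63.6% in CD4SP. The short-read libraries were depleted of ribosomal RNA from total RNA, so they also hold RNA without a poly(A) tail.

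The start of these isoforms could be read for a subset, and most starts in it were T-rich. Genome sequence was at hand only inside annotated exons, which allowed the first 20 bases to be read for 357 of the placed isoforms in CD8SP and 304 in CD4SP, few of them wholly intronic. In this subset at least 60% of the first 20 bases were T in 72.3% of CD8SP isoforms (exact 95% interval 67.3 to 76.9) and 76.0% of CD4SP isoforms (70.8 to 80.7), with a median of 90% T in both. Among the wholly intronic isoforms it was 16 of 28 in CD8SP (57.1%) and 16 of 26 in CD4SP (61.5%). The share was 58.7% and 74.1% in other single-exon sense isoforms and 22.9% and 35.4% in multi-exon full and incomplete matches, in CD8SP and CD4SP in that order. These shares were compared by their intervals only, after the values were seen, and the intervals of in-gene and other single-exon isoforms overlap in CD4SP.

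**Figure D3:**
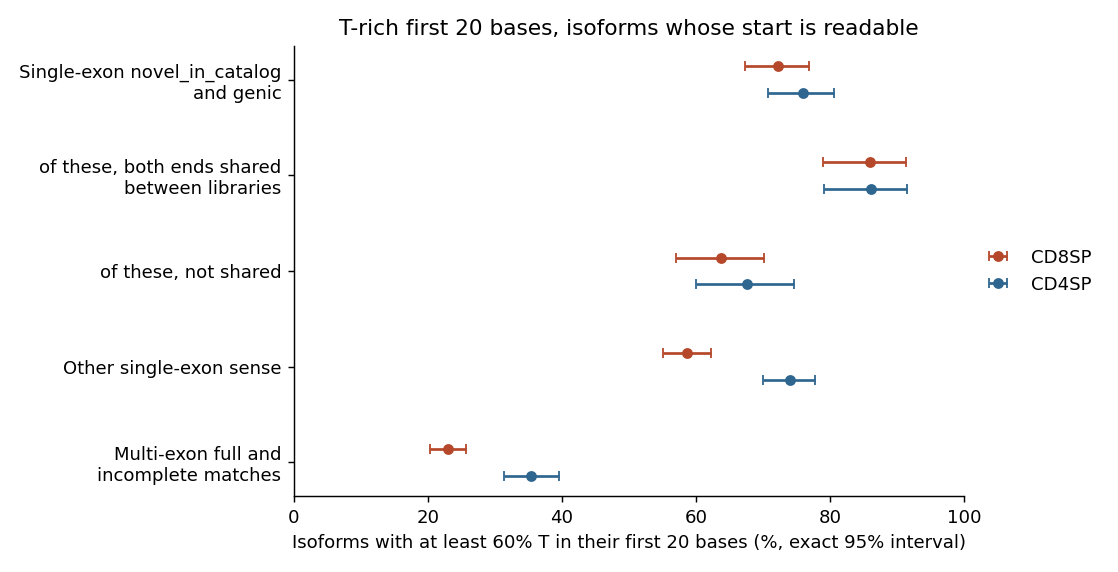
Share of isoforms with at least 60% T in their first 20 bases (horizontal axis, percent, points with exact 95% intervals), over isoforms whose start lies in an annotated exon, for CD8SP (red, upper) and CD4SP (blue, lower). In-gene single-exon isoforms sit at 72.3% in CD8SP and 76.0% in CD4SP, and multi-exon matches at 22.9% and 35.4%.

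Isoforms whose both ends were shared between the libraries had a T-rich start in 86.0% of CD8SP and 86.1% of CD4SP cases, and those without such a partner in 63.8% and 67.7%. A T-rich start and an A-rich window came together in 171 of 357 readable CD8SP isoforms (47.9%) and 146 of 304 CD4SP isoforms (48.0%). A T-rich start alone was found in 87 CD8SP and 85 CD4SP isoforms, an A-rich window alone in 65 and 52, and neither in 34 and 21. The start was T-rich in 72.5% of CD8SP isoforms with an A-rich window and 71.9% of those without, and in 73.7% and 80.2% in CD4SP, so a T-rich start was not more frequent beside an A-rich window beyond the intervals.

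A number of these isoforms had a mirror image on the other strand of the same library. In places where genes overlap on opposite strands, 138 in-gene single-exon isoforms in CD8SP and 158 in CD4SP had a counterpart of the same kind on the other strand with both ends within 50 bases, which makes 69 and 79 mirrored pairs. The matching ends were a median of 25 bases apart in both libraries. Both isoforms of a pair had an A-rich window in 59 of 69 CD8SP pairs and 68 of 79 CD4SP pairs, and no pair lacked one on both strands. Between Adcy3 (an adenylate cyclase) on the plus strand and Cenpo (a kinetochore protein) on the minus strand, CD8SP listed chr12:4195398-4201519 and chr12:4195422-4201549, each isoform starting beyond the point where the other ended. CD4SP listed the same plus-strand isoform and a minus-strand one at chr12:4195426-4201549.

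Srsf2, an SR protein that promotes exon inclusion, had an isoform of 4174 bases in CD8SP and 4176 bases in CD4SP on the minus strand, mirrored by one of 4171 bases in both libraries assigned to Mettl23 on the plus strand. All 4 windows held 90% A. In CD4SP, both isoforms assigned to the lincRNA 2010300F17Rik, of 4605 and 1647 bases, mirrored isoforms of Skap1 of 4595 and 1653 bases. Of antisense single-exon isoforms, 449 of 1993 in CD8SP and 469 of 1944 in CD4SP could be placed through a predicted coding start, and 207 (46.1%) and 219 (46.7%) of those mirrored an in-gene single-exon isoform. The part of strand assignment in these mirrored pairs was not tested.

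Polyadenylation signals were less frequent before these 3′ ends than before others. The last 50 bases could be read for 556 CD8SP and 489 CD4SP isoforms, and AATAAA or ATTAAA on the sense strand was present in 47.3% and 45.2% of them. Other single-exon sense isoforms had one in 67.5% of CD8SP and 60.9% of CD4SP cases (adjusted p = 6.21e-13 and 4.53e-07, 2-sided Fisher's exact test over 4 comparisons), and multi-exon full and incomplete matches in 74.8% and 76.0% (adjusted p = 1.84e-31 and 2.70e-32 by the same exact test). Within the in-gene single-exon isoforms, 60.3% of those ending within 50 bases of an annotated end had a signal in CD8SP and 59.1% in CD4SP, against 27.6% and 22.9% of those ending elsewhere. The readable subset holds few intronic ends, so the shares do not describe the class as a whole. Matching an annotated transcript also partly sets where the comparison classes end, and no test was made at like ends.

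The isoforms had a median length of 2556 bases in CD8SP (95% interval of the median 2505 to 2606) and 2842 bases in CD4SP (2799 to 2899). All isoforms of the libraries differed in the same direction, with medians of 2597 bases in CD8SP and 2882 in CD4SP. Among the pairs with shared 3′ ends the median difference in length was 0 bases. Without the pairs with both ends shared the medians were 2453 bases in CD8SP and 2951 in CD4SP.

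The longest in CD8SP was an isoform of 8576 bases inside Adam28 (a membrane metalloprotease), at chr14:68614083-68622658, which spanned 3 introns and was followed by 75% A. In CD4SP the longest was one of 7936 bases inside an intron of Mtap, the methylthioadenosine salvage enzyme, with 70% A. Long intronic isoforms of CD4SP also lay in Nck2, an adaptor of T cell receptor signalling (7520 bases), in the methylcytosine oxidase gene Tet3 (7390 bases) and in the ubiquitin ligase gene Smurf1 (7275 bases). The shortest were 232 bases in Gm20390 in CD8SP and 246 bases in the mitochondrial ribosomal gene Mrpl47 in CD4SP. A CD4SP isoform of 343 bases lay in an intron of Cd247, which encodes the CD3 zeta chain.

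The isoforms were spread over 2024 genes in CD8SP and 1825 in CD4SP. Of these, 1290 genes were common to both libraries, 63.7% of the CD8SP and 70.7% of the CD4SP genes. All sense isoforms together gave 2295 common genes of 3602 in CD8SP and 3031 in CD4SP, or 63.7% and 75.7%. Among isoforms without an A-rich window 182 genes were common, 43.9% of 415 CD8SP and 50.3% of 362 CD4SP genes, and without the pairs with both ends shared 500. Of the genes with such isoforms in 1 library only, 148 of 734 for CD8SP and 157 of 535 for CD4SP had any sense isoform in the other library.

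Most host genes had a single one of these isoforms, 73.1% in CD8SP and 72.3% in CD4SP. For 65.0% of host genes in CD8SP and 69.2% in CD4SP they were the only sense isoforms listed, and 28.4% and 25.3% also had a multi-exon isoform. Host genes were long, with a median annotated span of 51848 bases in CD8SP and 52251 bases in CD4SP, against 20704 and 21064 bases for genes that had other sense isoforms only. Across genes, which are not independent replicates, the number of these isoforms and the span had a Spearman correlation of 0.243 over 2007 CD8SP genes and 0.270 over 1807 CD4SP genes. Their median level was 5.98 FPKM in CD8SP and 5.19 in CD4SP, against 8.18 and 5.44 FPKM for the genes with other sense isoforms only.

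Pitpnc1, a phosphatidylinositol transfer protein gene of 262808 bases on chromosome 11, had the most, with 12 in CD8SP and 14 in CD4SP. Of these, 10 in CD8SP and 11 in CD4SP lay wholly in introns, all had at least 60% A after the 3′ end, and 10 in each library had a 3′ end within 10 bases of one in the other. None ended within 50 bases of an annotated end, and no multi-exon isoform of the gene was listed in either library. Its gene level was 9.90 FPKM in CD8SP and 7.98 in CD4SP.

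**Figure D4:**
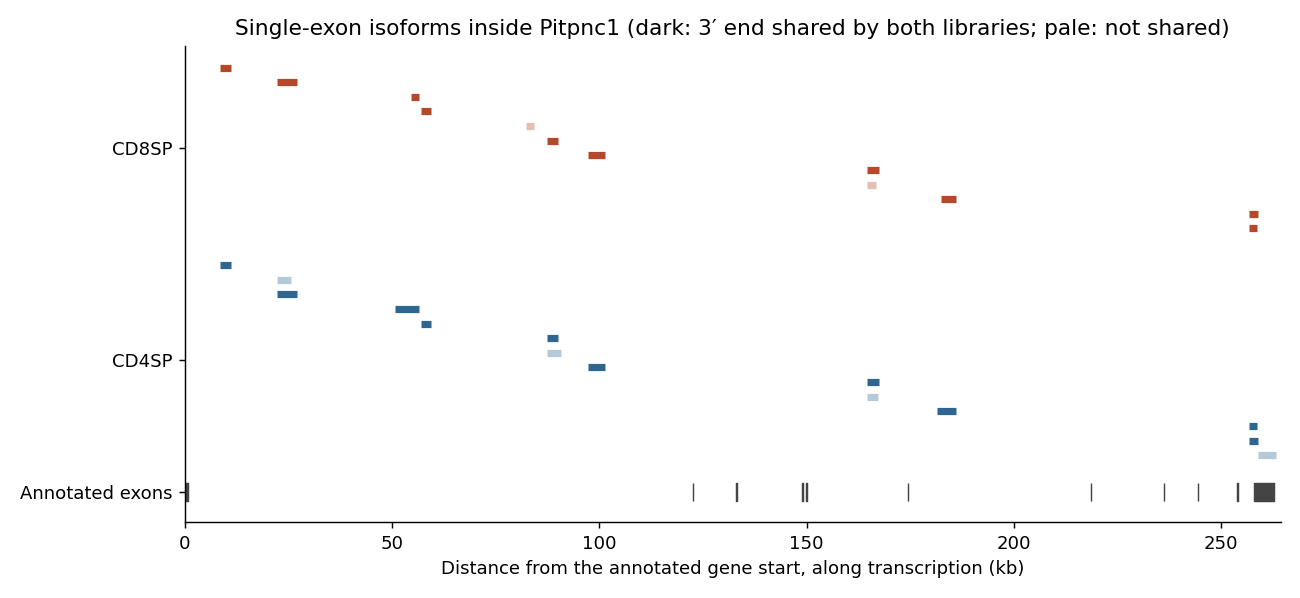
In-gene single-exon isoforms of Pitpnc1 drawn to scale along the gene (horizontal axis, distance from the annotated start in kb), for CD8SP (red, 12 isoforms, above) and CD4SP (blue, 14 isoforms, below), over the annotated exons. Dark bars, 10 in each library, have a 3′ end within 10 bases of a bar in the other library.

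Skap1, an adaptor between the T cell receptor and integrins, had 10 in CD8SP and 9 in CD4SP, of which 10 and 8 were wholly intronic, and listed no other sense isoform. Ambra1, an autophagy regulator, had 9 in each library, and 7 of them in each shared a 3′ end. Ccnd3, the gene of cyclin D3, had 7 in CD8SP and 8 in CD4SP, all intronic and all A-rich. Foxp1, a transcription factor of T cell quiescence, had 7 in CD8SP and 8 in CD4SP. Stim1, the calcium sensor of the endoplasmic reticulum, had 6 in CD8SP and 7 in CD4SP, at gene levels of 13.4 and 2.21 FPKM. Such gene levels leave out assembled transcripts and can be too low in a lineage, so no difference of Stim1 is read from them. Eif4g1, for example, stood at 0 FPKM in both lineages, although each library listed 1 multi-exon isoform of it. The ubiquitin-conjugating enzyme gene Ube2h (6 in CD8SP, 8 in CD4SP), Ripor2 (7 and 6), the kinase Sik3 (6 and 7), the Notch co-activator Maml2 (6 in each) and Aff3 (6 and 5) completed the 12 genes with the most over both libraries, together with Fgfr2.

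**Figure D5:**
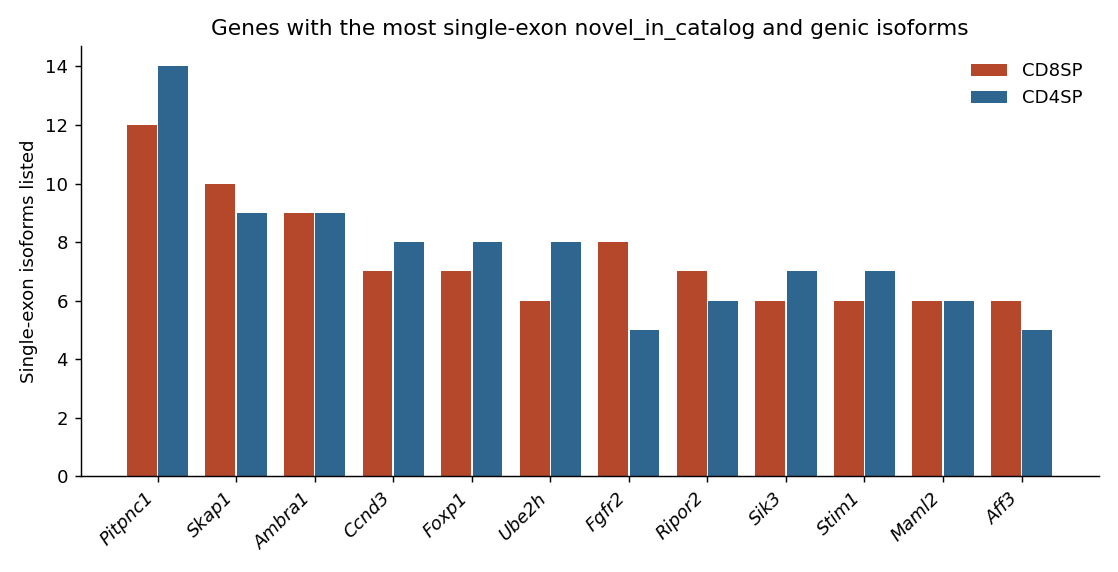
Number of in-gene single-exon isoforms listed (vertical axis, from 0) for the 12 genes with the most over both libraries among genes found in both, in CD8SP (red, left bar) and CD4SP (blue, right bar). Pitpnc1 leads with 12 in CD8SP and 14 in CD4SP.

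Fgfr2 entered this set through its annotation. The growth factor receptor gene had 8 of these isoforms in CD8SP and 5 in CD4SP but was listed at 0 FPKM in CD8SP and 0.00388 in CD4SP. GENCODE M21 gives it a span of 2960900 bases that runs over other genes of the same strand. Of the CD8SP isoforms 3 lay in Fam53b and 1 each in Ate1, Ikzf5 and Ctbp2, and of the CD4SP isoforms 3 lay in Fam53b and 1 each in Ate1 and Ctbp2. Over all placed isoforms, 85 in CD8SP (2.99%) and 69 in CD4SP (2.65%) lay wholly inside a further gene on the same strand.

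Genes with these isoforms in CD8SP alone included Itgae, the CD103 integrin chain of cytotoxic cells, with 3 in CD8SP and 0 in CD4SP. Its isoforms measured 1149, 2252 and 4120 bases, had 75% to 90% A after the 3′ end, and 2 of them shared a start. Gene FPKM of Itgae was 33.7 in CD8SP and 0.231 in CD4SP. Adk (adenosine kinase), the SR protein kinase gene Srpk1, the syntaxin gene Stx8 and Tmem164 also had 3 in CD8SP and 0 in CD4SP, and Srpk1 stood at 20.9 FPKM in CD8SP and 24.0 in CD4SP. In CD4SP alone, 2610307P16Rik had 4, Brip1os and Riox2 had 3, and 1110008L16Rik and 2010300F17Rik had 2. Riox2 (a ribosomal oxygenase) stood at 10.3 FPKM in CD8SP, where it had none, and 6.16 in CD4SP. Cd4 itself had 1, in CD4SP (chr6:124875595-124878832, minus strand, 3238 bases, 85% A), while Cd8a and Cd8b1 had none in either library.

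The levels of the host genes in short reads were compared with a call at 2-fold and at least 1 FPKM on the log2(FPKM + 0.1) scale. Of 1957 host genes tested, 215 (11.0%) were higher in CD8SP, against 15.2% of all 8316 genes, and 104 (5.31%) were higher in CD4SP, against 5.56% of all genes. With the files scaled to a median log2 ratio of 0, 146 host genes were higher in CD8SP, against 9.79% of all genes, and 155 in CD4SP, against 8.08%, so which lineage had more of the calls depended on the scaling. Genes with these isoforms in CD8SP only were higher in CD8SP in 87 of 521 cases (16.7%) and higher in CD4SP in 22, whereas those with them in CD4SP only were higher in CD4SP in 24 of 361 cases (6.65%) and higher in CD8SP in 31. For genes with these isoforms in 1 library, the share higher in that lineage lay near the background. Adding assembled spliced transcripts to the gene level reduced the host genes higher in CD8SP to 138, against a background of 10.4%. Host-gene shares are not given for this setting or for the scaling, so these counts are not read against the background. The median log2 ratio of CD8SP to CD4SP over 7119 genes at 1 FPKM or more in both was 0.29. The genes with the largest differences among those with these isoforms in 1 library were picked after their values were seen. Adgrg5, an adhesion receptor with 1 isoform in CD8SP, stood at 30.9 FPKM in CD8SP and 0.0158 in CD4SP (log2 ratio 8.06), and Plac8 at 23.9 and 0.664 FPKM. Dapk1, a death-associated kinase with 1 isoform in CD4SP, stood at 0.125 FPKM in CD8SP and 2.17 in CD4SP (log2 ratio -3.33).

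Gene groups of T cell biology are given by the number of genes hosting these isoforms among those listed with any sense isoform, with no test. Over all genes with a sense isoform the share was 56.2% in CD8SP and 60.2% in CD4SP, and nothing particular to a group is read from its count. Of 42 genes of T cell receptor signalling, 21 of the 31 listed in CD8SP and 18 of the 25 listed in CD4SP had one (67.7% and 72%), and 16 had one in both, among them Cd247, Lck, Themis and Stim1. Lck, the kinase that starts receptor signalling, had 3 in each library, all 3 with shared 3′ ends. Of 40 T cell transcription factors, 20 of 27 listed in CD8SP and 15 of 23 in CD4SP hosted one, 14 in both. Bach2, a repressor that keeps T cells resting, had 5 in CD8SP and 6 in CD4SP, all wholly intronic, and Lef1 and Klf13 had 3 in each library.

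Of 49 hnRNP, RBM and related genes, 22 of 37 listed in CD8SP (59.5%) and 19 of 32 in CD4SP (59.4%) had one, near the share over all genes, and 16 had one in both. Mbnl1, a regulator of alternative splicing, had 2 in CD8SP and 3 in CD4SP beside 16 and 17 multi-exon isoforms. Among 19 SR protein and splicing kinase genes, 4 of 11 in CD8SP and 4 of 9 in CD4SP hosted one. Tra2b had 3 in CD8SP and 2 in CD4SP, and the kinase gene Clk1, known for retained introns, had 3 in CD8SP and 1 in CD4SP, all of which spanned whole introns. Of 46 chromatin and DNA methylation genes, 25 of 38 in CD8SP and 26 of 37 in CD4SP hosted one and 23 did in both, such as Tet3, Nipbl and Chd1.

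Of 34 selected ribosomal protein and translation factor genes, 3 of 23 listed in CD8SP and 3 of 12 in CD4SP had one, namely Eif4e, Eif4g1 and Eif4g3 in both. Translation genes outside that list also hosted one, such as Rps3a1 in both libraries. The median span of that group was 5666 bases, against 49972 bases for the T cell receptor signalling group. Of 28 interferon and MHC class I genes, 5 of 15 in CD8SP and 3 of 10 in CD4SP hosted one. H2-K1, a classical MHC class I heavy chain, had 1 of 2647 bases in CD8SP and 1 of 2645 bases in CD4SP, with 10% and 15% A after the 3′ end and beside 21 and 13 multi-exon isoforms. Among 8 Gimap genes, 1 of 2 listed in CD8SP and 0 of 2 in CD4SP had one.

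Actin and motility genes hosted one in 18 of 31 cases in CD8SP and 16 of 27 in CD4SP, with Actr2 (an Arp2/3 subunit) at 5 and 3 and Fyb (an adaptor of integrin activation) at 3 and 5. For cytokine receptor and JAK-STAT genes the counts were 9 of 15 and 6 of 9, with 2 in each library in Jak1 and in Jak2. Ubiquitin ligase and protease genes hosted one in 14 of 20 and 11 of 14 cases, led by Birc6 with 4 in CD8SP and 6 in CD4SP. Integrin, chemokine and egress genes did so in 4 of 10 and 4 of 4 cases. Itgal, the LFA-1 alpha chain, had 2 in CD8SP and 1 in CD4SP, and none of the 3 was A-rich.

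Of 15 nuclear lncRNA and snoRNA host genes, 2 of 5 listed in CD8SP and 2 of 3 in CD4SP had one, Snhg1 and Snhg6 in both. Over all genes, 20 isoforms in CD8SP and 21 in CD4SP contained an annotated small RNA gene in full. That of the snoRNA host gene Snhg1 measured 2950 bases in CD8SP and 2939 bases in CD4SP, held 8 snoRNA genes, Snord22 among them, ended near the annotated end and was followed by 20% A in CD8SP and 15% in CD4SP. Snhg6 isoforms of 1593 bases in CD8SP and 1596 bases in CD4SP held Snord87, and the Tpt1 isoforms whose end is printed above held Snora31. All of them kept the introns in which those small RNAs lie.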

How the data were processed

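For each long-read library the authors deposited a table of collapsed isoforms with length, exon number, structural category and, as a percent, the A content of the window past the 3′ end. Its read-count columns are empty. Short-read FPKM was read from the transcript files the authors made with Cufflinks, per the file headers, with lanes pooled. Cufflinks 2.1.1, TopHat2 2.0.14, RSEM 1.3.1, Trimmomatic, FastQC, GSNAP and the build GRCm38 are listed in the submitters' processing notes without roles. The aligner of the long reads is not known here. A table of chained isoforms was not used here.

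The isoform tables hold no isoform positions. Each was computed from the deposited distances to annotated gene start and end and the length, against GENCODE M21, in place of the sequence match planned, with 1 solution for 2825 of 2872 CD8SP and 2587 of 2634 CD4SP isoforms. It equalled the position from the deposited coding start in 617 of 617 CD8SP and 638 of 639 CD4SP cases. A window of 20 bases read from GENCODE exons had the deposited percent A in all 330 CD8SP and 282 CD4SP isoforms where it could be read. In each library 32 isoforms could not be set against their gene model.

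Shares were tested by Fisher's exact test (2-sided, scipy 1.17.1), adjusted by Benjamini-Hochberg within each family (statsmodels 0.14.6). Intervals are Clopper-Pearson at 95%. The scripts were tested on simulated data. Gene FPKM is the sum over a gene's RefSeq transcripts, called at 1 FPKM or more in the higher lineage and a fold of at least 2 with a pseudocount of 0.1, a scale that understates the change of low genes. Except where said, it leaves out assembled transcripts, so an expressed gene can be listed too low. Named genes are the 12 with the most of these isoforms in both libraries, the 5 with the most in 1 library only, up to 4 per gene list, and those of the longest, shortest and longest shared isoforms. The isoform class and gene lists were chosen with earlier results of these data known. Genes named for a large FPKM difference, overlaps with further genes, small RNA genes, mirrored isoforms and T-rich starts were added after the values were seen. A few items that these rules would name are not reported here.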

Additional observations from a re-analysis of the deposited data

How the results depend on the processing

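Of the alternatives run, 49 values kept their direction and call or, for counts and medians, their range. Another 10 moved, 4 had an unadjusted exact-test p that rose above 0.05, and 1 changed sign. That 1 was the A-rich share of CD8SP minus CD4SP, at 1.25 points for genic alone and -0.774 for all, neither past the test (exact p = 0.781 and 0.433). The share of in-gene single-exon isoforms differed by -1.47 points between CD8SP and CD4SP and did not pass after adjustment (exact test, adjusted p = 0.103). Its unadjusted p of 0.0359 (exact test) rose above 0.05 at lengths of at least 1000 bases (-1.26) and for novel_in_catalog alone (-0.975). The same held for genic alone (-0.494) and without the pairs with both ends shared (-0.0432, where only this class was reduced). Counted by gene the difference was -4.02 points (p = 0.000979, exact test that did not pair the genes). Median length moved to 2770.5 bases in CD8SP and 3099 in CD4SP with 1 isoform per gene, to 2475.5 and 2768.5 without A-rich isoforms, and to 2453 and 2951 without the pairs with both ends shared. Common genes numbered 182 without A-rich isoforms and 500 without those pairs, pairs with identical 3′ ends 681, and host genes higher in CD8SP 138 with assembled transcripts. Scaling to a median log2 ratio of 0 turned the balance of 215 higher in CD8SP and 104 in CD4SP to 146 and 155. Fewer isoforms or pairs enter the counts of common genes and identical ends by construction, and other causes were not tested. Leaving out the pairs and adding assembled transcripts were chosen after seeing the data. No other comparison of percent A and none of polyadenylation signals changed its call under the alternatives run. No paired analysis was possible because each lineage has 1 long-read library and 1 pooled short-read file, and no replicate could be left out. Depth per isoform is unknown, so an isoform missing from a library may be undetected there.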
